A study of Mus musculus with 6 samples.

Results

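The genes described are 10 members of the JAK-STAT pathway in mouse myeloid progenitors: the kinase genes Jak1 and Jak2, the transcription factor genes Stat3, Stat5a and Stat5b, the feedback inhibitor genes Socs1, Socs2, Socs3 and Cish, and the target gene Pim1. They were chosen by symbol, and each matched 1 of the 31626 rows of every expression table. All 10 passed the filter on low values. The cells were common myeloid progenitors of C57Bl/6 background, transformed with an MSCV retrovirus that carries MN1, a leukaemia oncogene, and GFP. The 3 control libraries came from Dot1l flox/flox cells transduced with a control, and the 3 Dot1l-deleted libraries (Dot1l -/- in the labels) from cells transduced with Cre, a recombinase that removes the floxed part of the gene. Both groups carried the MN1 virus, grew in M3234 methylcellulose medium with serum, IL3, IL6 and SCF, and were sorted at day 7. No library had Cre with intact Dot1l, so an effect of Cre and one of the deletion cannot be told apart. The question was which transcripts differ when the histone H3 lysine 79 methyltransferase DOT1L is lost.

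JAK kinases sit on the inner side of cytokine receptors that have no kinase of their own. When a cytokine binds, they phosphorylate the receptor and the STAT proteins, which form dimers, enter the nucleus and bind DNA. In myeloid progenitors IL3 and GM-CSF act mainly through JAK2 and STAT5, and IL6 through JAK1 and STAT3. CIS (encoded by Cish) and the SOCS proteins are induced by STATs and dampen the same receptors, while the kinase PIM1 promotes survival and growth. SCF, the third factor in the medium, acts through KIT, a receptor that is itself a kinase.

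The sequences shown are those near the start sites of Cish and Socs3, since a general STAT binding motif can be read there. RefSeq promoter windows of 300 bases, 250 before and 50 after an annotated start on build GRCm38.p6, were found for 9 of the 10 genes, in 12 windows, as some have more than 1 start; Socs2 had no entry. The general STAT motif TTCNNNGAA, which reads the same on both strands, was in 2 of these 12 windows, 1 of Cish and 1 of Socs3. Of all 32851 windows 8.30% held it. The following stretches of 30 bases hold it, in capitals; the Cish stretch is at chr9:107296654-107296683 on the plus strand and the Socs3 stretch at chr11:117969502-117969531 on the minus strand.
Cish: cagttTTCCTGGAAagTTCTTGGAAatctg
Socs3: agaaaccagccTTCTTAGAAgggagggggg
The first Cish match began at the annotated start itself and the second 11 bases further on, and the Socs3 match began 154 bases upstream. A match is a sequence feature, not evidence of binding.

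Stat5a and Stat5b are paralogs that lie next to each other on chromosome 11. One RefSeq window of each gene shared a block without gaps, at chr11:100860412-100860474 on the plus strand for Stat5a and chr11:100822571-100822633 on the minus strand for Stat5b (GRCm38.p6). Of 63 bases in the block, 53 were identical. The transcripts themselves also share sequence: in GENCODE M21, 8.21% of the distinct 50-base words of Stat5a transcripts occurred in Stat5b, and 11.0% of those of Stat5b in Stat5a. The deposited values do not show how such reads were divided, so the split between both genes is uncertain to that extent.

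Levels are in FPKM, a gene's fragments divided by its length and by the library's mapped total, so a value per length. Differences are log2 fold changes of FPKM + 1, where a negative value is lower in the Dot1l-deleted libraries, and SE is the standard error; fold values are ratios of mean FPKM. Adjusted p-values are from limma, two-sided and Benjamini-Hochberg adjusted over the 11924 genes whose FPKM averaged 1 or more, and a gene was called changed under 0.05. Whether replicates were separate cultures or animals is not stated in the labels; p-values then reflect only how far these libraries spread, which may be technical.

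The targeted gene was lower in every library labelled as deleted, but not absent. Dot1l was at 20.2, 22.6 and 19.6 FPKM in the controls and 8.24, 8.17 and 5.80 in the Dot1l-deleted libraries (log2 fold change -1.39, SE 0.157, adjusted p = 0.000124). A mean of 7.40 of 20.8 FPKM remained, and a value over the whole gene does not measure the floxed part, so how complete the deletion was cannot be read from it. The libraries had 17310 to 18034 genes above 0. The third Dot1l-deleted library stood apart: the median gene lay -0.37 (log2) from the mean of the 6 libraries, where the others lay at 0.05 to 0.10, and 39.0% of its summed FPKM came from 10 rows, which made up 6.59% to 10.8% elsewhere. All 10 genes described had their lowest value of the 6 libraries there. As deposited, the median gene among all those tested differed by -0.16 (log2). After median-of-ratios scaling this shift was 0.0011, and after scaling that library was the lowest of the Dot1l-deleted libraries for 2 of the 10 genes. Each difference of the 10 genes is therefore given as deposited and, as a scaled value, after this scaling.

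The labelled cell type was checked against its markers, which changed in both directions. Of 7 tested progenitor markers, 3 fell, Kit, Cd34 and Sox4, and 2 rose, Mpo and Fcgr3. The calls in all marker lists are for the values as deposited, where 12.2% of all tested genes fell and 7.43% rose. Of 11 neutrophil markers 9 were tested and rose, and the summed level of the list went from between 994 and 1228 FPKM in the controls to between 20627 and 24458. Of 8 tested monocyte and macrophage markers 6 rose and 1 fell (sums of 170 to 192 and 888 to 1179 FPKM), and of 7 mast cell and basophil markers 1 rose and 4 fell (2540 to 2788 and 1590 to 2302 FPKM). Of 7 erythroid markers 3 rose and 3 fell (40.0 to 44.8 and 50.1 to 66.9 FPKM), and of 4 megakaryocyte markers 2 rose and 1 fell (115.6 to 123 and 66.6 to 87.9 FPKM). The megakaryocyte sum fell mainly through Itga2b, at means of 82.8 and 18.7 FPKM, while Pf4 and Ppbp rose. In both groups the neutrophil sum was mostly S100a8 and S100a9. The mast cell and basophil sum was mostly Cpa3 in both groups, and Cpa3 did not pass. Ms4a1 of B cells and Cd3g and Cd8a of T cells were listed at 0 in all 6 libraries. The B cell list summed to 1.55 to 2.06 FPKM in the controls and 4.60 to 6.53 after deletion, and its 1 tested gene, Cd79b, rose. The T and NK sum, at 58.1 to 70.1 and 111.0 to 162.7 FPKM, was almost all Nkg7, which rose. Of the tested markers 6, among them Ltf, Retnlg and Csf1r, averaged under 1 FPKM in the controls and were tested only through the libraries where they are high. These shifts in maturation markers move with every result below, and their part in them was not tested. In bulk RNA, fewer cells of a type and less RNA per cell cannot be told apart.

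After deletion Stat5a and Stat5b, the feedback genes Socs2 and Socs3, and Pim1 were lower, and the kinase genes and Stat3 did not pass as deposited. Of the 10 genes, 5 fell (Stat5a, Stat5b, Socs2, Socs3 and Pim1), none rose (0 also at an unadjusted p under 0.05) and 5 did not pass; among all tested genes 19.7% changed, with 12.2% falling and 7.43% rising. With median-of-ratios scaling 7 of the 10 fell, Jak1 and Cish being added (6 with the replicate block as well, without Jak1), and none rose, against 22.3% and 23.0% of all genes (45.3% in either direction). The same numbers, 7 and none, came without the third Dot1l-deleted library, against 21.0% and 17.4% (38.4% in either direction). In 7 of the 10, the highest Dot1l-deleted value was below the lowest control value, which held for 34.1% of all tested genes; in 44.9% the groups were apart in either direction. With scaling it also held for 7, against 28.2%, or 56.4% in either direction. The median log2 fold change of the 10 was -0.46 as deposited and -0.28 scaled, beside -0.16 and 0.0011 for all tested genes. The genes were named with earlier results of these data known, so these counts describe them and are no independent support.

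**Figure D1:**
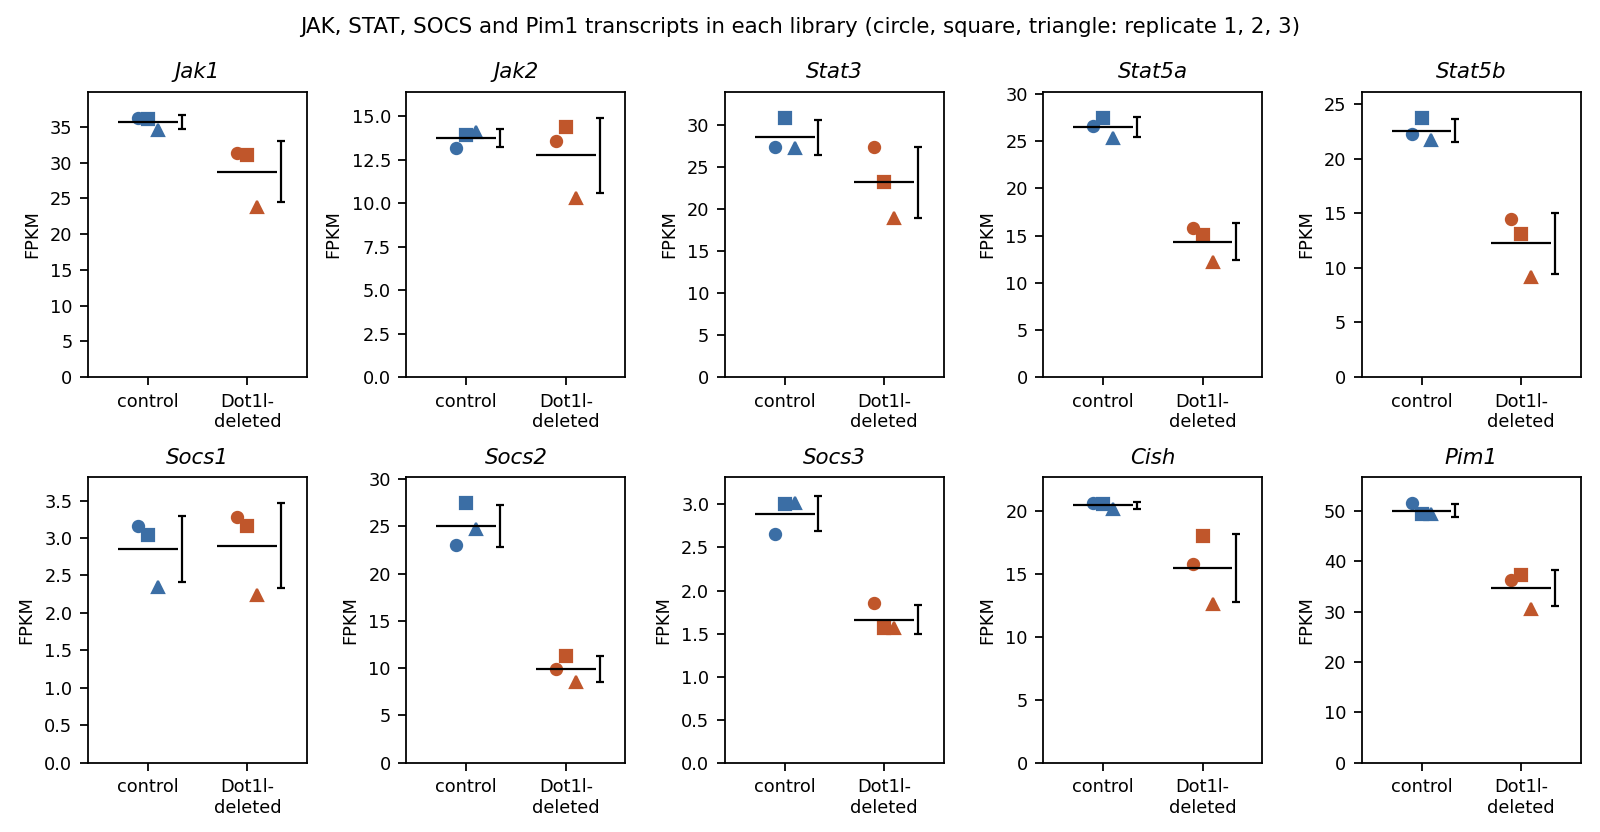
FPKM (y axis, from 0) of the 10 genes in the 3 control (blue) and 3 Dot1l-deleted (orange) libraries; lines are group means, bars are SD and symbols mark the replicate. The groups are apart for Stat5a, Stat5b, Socs2, Socs3, Cish, Pim1 and Jak1, and the third Dot1l-deleted library (triangle) is the lowest point in every panel.

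In the controls Pim1 was the highest of the 10 at 50.1 ± 1.26 FPKM, above 80.9% of tested genes, followed by Jak1 at 35.7 ± 0.945 (SD, n = 3 each). Stat3, Stat5a, Socs2 and Stat5b came next at means of 28.5, 26.5, 25.1 and 22.6 FPKM, and neighbours in that order overlapped in their values. Cish at 20.4 FPKM and Jak2 at 13.7 FPKM were each apart from the genes above and below them. Socs3 and Socs1, at 2.89 and 2.85 FPKM, overlapped and were far below the rest. After deletion Pim1, Jak1 and Stat3 were still the first 3, with overlapping neighbours. Socs2 moved from the fifth place to the eighth, and Cish from the seventh to the fourth. Cish, Stat5a, Jak2, Stat5b and Socs2 then formed a row of overlapping neighbours between means of 15.5 and 9.90 FPKM.

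Of the kinase genes neither passed as deposited. Jak1 (ENSMUSG00000028530), whose product serves IL6 and interferon receptors among others, was at 36.3, 36.1 and 34.6 FPKM in the controls and 31.3, 31.1 and 23.8 after deletion. All Dot1l-deleted values were below the controls, but the difference did not pass as deposited (log2 fold change -0.31, SE 0.157, adjusted p = 0.200). The scaled value was -0.13 (SE 0.0360, adjusted p = 0.0259), and without the third Dot1l-deleted library -0.19 (adjusted p = 0.0215). With scaling and the replicate number as a block Jak1 did not pass (adjusted p = 0.0815). Jak2 (ENSMUSG00000024789), the kinase of the IL3, GM-CSF and erythropoietin receptors, was at 13.2, 13.9 and 14.1 FPKM in the controls and 13.6, 14.4 and 10.3 after deletion. The groups overlapped, with the first and second Dot1l-deleted libraries inside or above the control range. Its log2 fold change was -0.11 (SE 0.151, 95% interval -0.45 to 0.22, adjusted p = 0.635) and 0.06 scaled (adjusted p = 0.393).

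Stat3 (ENSMUSG00000004040), the main STAT of IL6 and G-CSF signalling, was at 27.3, 30.8 and 27.3 FPKM in the controls and 27.4, 23.2 and 18.9 after deletion. The first Dot1l-deleted library lay within the control range and the other two below it. The difference did not pass either way (log2 fold change -0.30, SE 0.165, 95% interval -0.67 to 0.07, adjusted p = 0.239, and -0.12 scaled, adjusted p = 0.244).

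Both STAT5 genes fell, and by nearly the same amount. Stat5a (ENSMUSG00000004043) was at 26.6, 27.5 and 25.4 FPKM in the controls and 15.8, 15.1 and 12.2 after deletion. The groups were far apart, and the mean was 1.85-fold lower (log2 fold change -0.85, SE 0.146, adjusted p = 0.00215). With scaling the difference was -0.67 (SE 0.0502, adjusted p = 0.000145). Stat5b (ENSMUSG00000020919) was at 22.2, 23.8 and 21.7 FPKM in the controls and 14.5, 13.1 and 9.15 in the Dot1l-deleted libraries. Again no value overlapped, and the mean was 1.84-fold lower (log2 fold change -0.85, SE 0.172, adjusted p = 0.00564). With scaling it was -0.68 (SE 0.0600, adjusted p = 0.000283).

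**Figure D2:**
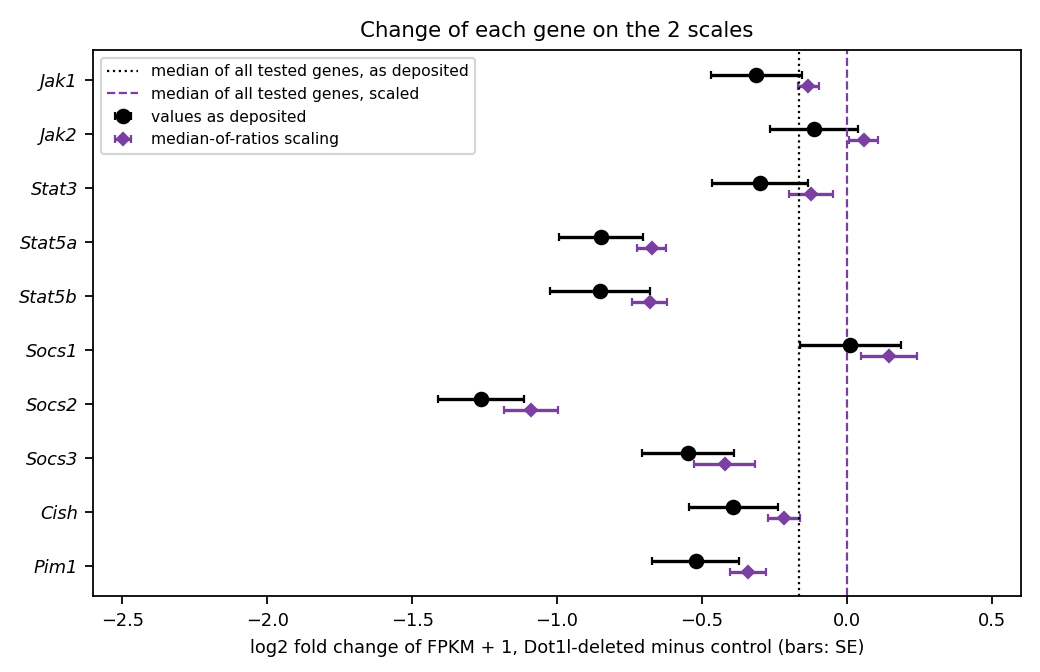
Log2 fold change of FPKM + 1 (x axis, Dot1l-deleted minus control, bars SE) of each gene with the values as deposited (black circles) and with median-of-ratios scaling (purple diamonds); dotted and dashed lines are the medians of all tested genes on each scale. Socs2 lies farthest left at -1.26 and -1.09, the STAT5 genes follow, and Jak2 and Socs1 lie near or above the medians.

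Among the feedback genes the members parted. Socs2 (ENSMUSG00000020027), known for restraining growth hormone and other STAT5-activating receptors, fell most. It was at 23.0, 27.5 and 24.8 FPKM in the controls and 9.87, 11.3 and 8.56 in the Dot1l-deleted libraries. A wide gap separated the groups, and the mean was 2.53-fold lower. Its log2 fold change was -1.26 (SE 0.147, adjusted p = 0.000153) and -1.09 scaled (SE 0.0921, adjusted p = 0.000242).

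Cish (ENSMUSG00000032578), a feedback gene widely used as a readout of STAT5 activity, was at 20.6, 20.6 and 20.1 FPKM in the controls and 15.8, 18.0 and 12.6 after deletion. The controls were close together and all Dot1l-deleted values lay below them, the mean being 1.32-fold lower. As deposited the difference did not pass (log2 fold change -0.39, SE 0.154, adjusted p = 0.105). It passed when scaled (-0.22, SE 0.0560, adjusted p = 0.0218) and without the third Dot1l-deleted library (-0.26, adjusted p = 0.0324). Its start site holds both STAT motifs printed above.

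Socs3 (ENSMUSG00000053113), the feedback inhibitor of IL6 and G-CSF receptors, was low and fell further. Its values were 2.66, 3.01 and 3.01 FPKM in the controls and 1.86, 1.57 and 1.56 after deletion, with no overlap, and the mean was 1.74-fold lower. On the log2 scale, where the pseudocount of 1 shrinks changes at such levels, this was -0.55 (SE 0.158, adjusted p = 0.0342), or -0.42 scaled (adjusted p = 0.0199). The call was lost without control replicate 1, 2 or 3 or Dot1l-deleted replicate 2, at adjusted p-values of 0.0846, 0.113, 0.130 and 0.0671. Socs1 (ENSMUSG00000038037), which inhibits JAK kinases directly and is induced by interferon, was at 3.16, 3.05 and 2.35 FPKM in the controls and 3.28, 3.16 and 2.24 after deletion. The groups overlapped as deposited, while after scaling the Dot1l-deleted values lay above the controls (log2 fold change 0.01, SE 0.175, 95% interval -0.38 to 0.40, adjusted p = 0.970; scaled value 0.15, adjusted p = 0.265), and the sign turned with scaling to the summed FPKM (-0.10).

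Pim1 (ENSMUSG00000024014), a serine/threonine kinase gene that STAT3 and STAT5 activate, was at 51.6, 49.4 and 49.4 FPKM in the controls and 36.2, 37.3 and 30.6 after deletion. The groups did not overlap and the mean was 1.44-fold lower (log2 fold change -0.52, SE 0.149, adjusted p = 0.0330), and -0.34 when scaled (SE 0.0625, adjusted p = 0.00592). The call was lost without any one of control replicates 1, 2 and 3 (adjusted p = 0.164, 0.141 and 0.146) and without Dot1l-deleted replicate 1 or 2 (0.0582 and 0.0530).

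In GENCODE M21, exons of Jak1, Cish, Pim1, Stat3 and Stat5a overlap exons of another gene on the opposite strand; for Stat3 and Stat5a the partner is the other of the pair. The kit was stranded, per the labels. The sources used here do not give whether counting used it, so reads from such overlaps may be counted for either gene.

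A plain ratio of 2 genes within a library does not depend on how that library was scaled, and 5 such ratios were compared. An exact two-sided permutation test on the difference of log2(FPKM + 1) was used, where 3 against 3 libraries cannot go below p = 0.1. The ratio of Stat5a to Stat5b was 1.20, 1.16 and 1.17 in controls, against 1.09, 1.15 and 1.33 in Dot1l-deleted libraries (exact p = 1, adjusted over the 5 ratios 1). The first and second Dot1l-deleted values lay below the controls and the third above them, and without the third library the log2 difference was -0.069 (exact p = 0.2). That is the smallest exact p that 3 against 2 libraries can give. The spread was not tested.

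The ratio of Stat3 to Stat5b was 1.23, 1.30 and 1.26 in controls, against 1.89, 1.77 and 2.06 with Dot1l deleted (log2 difference 0.55, exact p = 0.1, adjusted 0.167). Every Dot1l-deleted library thus held more Stat3 relative to Stat5b than any control, which is as far as this design can separate groups. The ratio of Jak2 to Jak1 was 0.363, 0.386 and 0.408 against 0.433, 0.463 and 0.432 (log2 difference 0.20, exact p = 0.1, adjusted 0.167), also without overlap.

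The ratio of Socs2 to Cish was 1.12, 1.34 and 1.23 in controls, against 0.626, 0.626 and 0.678 in Dot1l-deleted libraries (log2 difference -0.87, exact p = 0.1, adjusted 0.167). Socs2 was thus the more abundant of the pair per length in every control and the less abundant in every Dot1l-deleted library. The ratio of Socs3 to Cish was 0.129, 0.146 and 0.150 against 0.118, 0.0869 and 0.124 (log2 difference -0.16, exact p = 0.5, adjusted 0.625). The plain ratios did not overlap but the tested values, which include the pseudocount, did; with a pseudocount of 0.1 the log2 difference was -0.35 (exact p = 0.1) and with one of 5 it was 0.076.

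**Figure D3:**
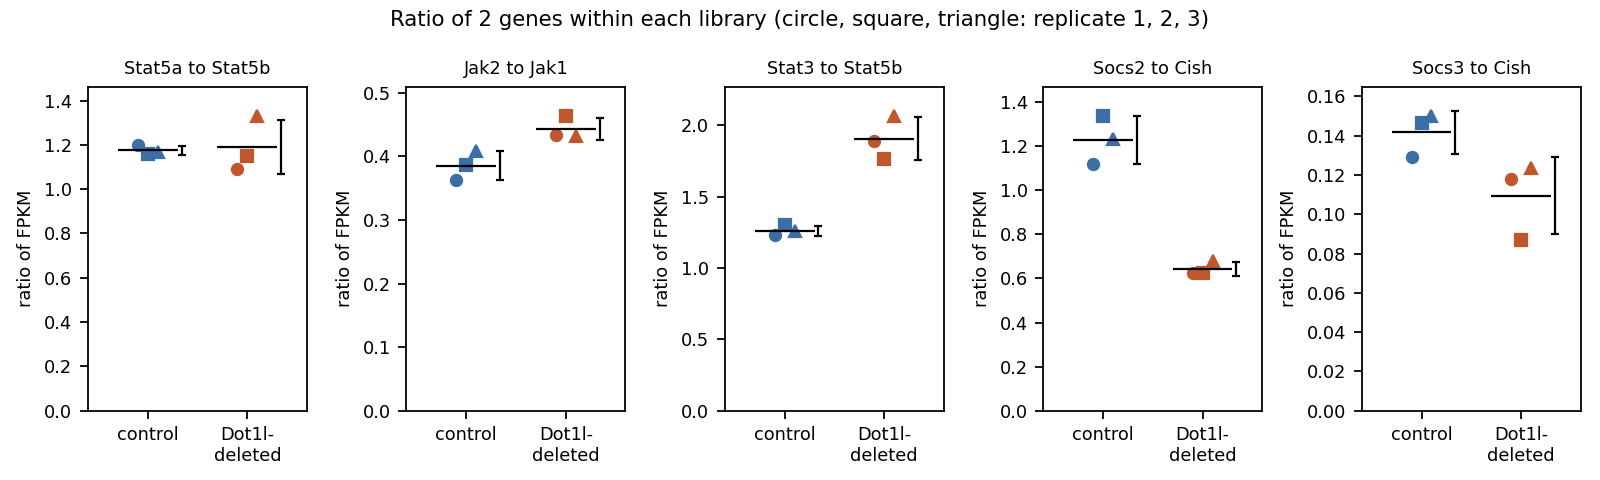
Ratio of the FPKM of 2 genes within each library (y axis, from 0) for the 3 control (blue) and 3 Dot1l-deleted (orange) libraries; lines are means and bars SD. Means of Stat3 to Stat5b are 1.26 and 1.91, those of Socs2 to Cish 1.23 and 0.643, and those of Stat5a to Stat5b 1.17 and 1.19.

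Stat5b, Stat5a and Stat3 follow each other on chromosome 11, so the protein-coding genes next to them in RefSeq order were read as well; they were picked by position after the values of the STAT genes were known. On the Stat5b side Ghdc was at means of 3.78 and 3.84 FPKM in controls and after deletion (log2 fold change 0.01, adjusted p = 0.967), and Rab5c at 111.5 and 124 FPKM (0.14, adjusted p = 0.638). On the Stat3 side Ptrf, which encodes the caveolar coat protein cavin 1, was at 6.24 and 6.93 FPKM (0.13, adjusted p = 0.532). Beyond it Atp6v0a1 was at 23.0 and 27.7 FPKM (0.25, adjusted p = 0.287), Naglu, a lysosomal enzyme gene, rose from 5.17 to 9.17 FPKM (0.71, adjusted p = 0.0121; lost without control replicate 2 or 3 or Dot1l-deleted replicate 1 or 2, at 0.0699, 0.0802, 0.0516 and 0.0649), and Hsd17b1 was at 1.82 and 2.50 FPKM (0.30, adjusted p = 0.272). Among the tested genes of this stretch the called falls were those of Stat5a and Stat5b (Kcnh4 and Hcrt, between Rab5c and Ghdc, were not among the tested genes).

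**Figure D4:**
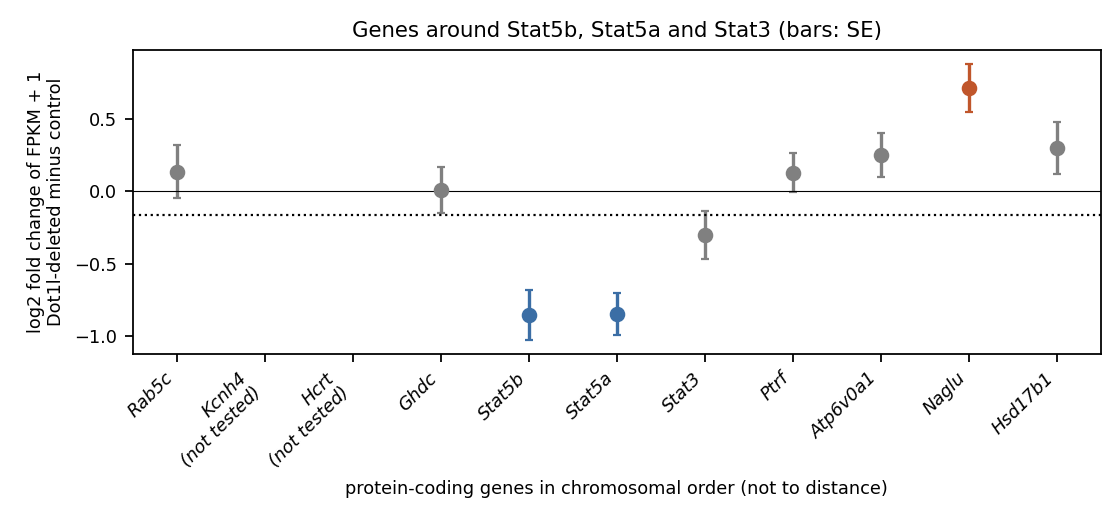
Log2 fold change of FPKM + 1 (y axis, Dot1l-deleted minus control, bars SE) of protein-coding genes in chromosomal order around the STAT genes; blue fell, orange rose, grey did not pass, and the dotted line is the median of all tested genes at -0.16. Stat5b and Stat5a lie at -0.85 each, Stat3 at -0.30, and the other tested genes at or above 0.01, with Naglu highest at 0.71. Kcnh4 and Hcrt were not tested.

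The other genes of the pathway came from lists that were not picked for how their genes moved, though earlier results of these data were known. Of 10 other JAK, STAT and SOCS family genes, 2 fell, none rose (0 at an unadjusted p under 0.05) and 8 did not pass, beside 12.2% and 7.43% of all tested genes. Stat6, the STAT of IL4 signalling, fell from 115 to 74.2 FPKM (log2 fold change -0.63, adjusted p = 0.0357; scaled value -0.45, adjusted p = 0.00452). Socs6 fell from 12.4 to 8.28 FPKM (-0.54, adjusted p = 0.0347; scaled value -0.38, adjusted p = 0.000572). Without control replicate 1, 2 or 3 both calls were lost (adjusted p = 0.182, 0.0963 and 0.111 for Stat6 and 0.139, 0.150 and 0.136 for Socs6), as was that of Stat6 without Dot1l-deleted replicate 1 (0.0610) and that of Socs6 without Dot1l-deleted replicate 2 (0.0631). Stat4 was at 11.4 and 8.35 FPKM (-0.42, adjusted p = 0.0714) and Stat2, an interferon-response STAT, at 7.32 and 9.29 FPKM (0.30, adjusted p = 0.188). With scaling 3 of the 10 rose and 3 fell, beside 23.0% and 22.3% of all tested genes, and without the third Dot1l-deleted library 2 rose and 3 fell, beside 17.4% and 21.0%; these counts are near the background. Stat2 was among those that rose with scaling (0.46, adjusted p = 0.000626). The list median was -0.19, beside -0.16 for all tested genes.

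Of 12 other inhibitors and phosphatases, Pias2, a SUMO ligase gene of the PIAS family, fell from 27.9 to 19.1 FPKM (log2 fold change -0.53, adjusted p = 0.0389), and 11 did not pass, beside 12.2% of all tested genes falling. That call was lost without control replicate 1, 2 or 3 (adjusted p = 0.123, 0.197 and 0.140) and without Dot1l-deleted replicate 1 or 2 (0.0590 and 0.0581). Pias3, which inhibits STAT3, was at 4.95 and 3.83 FPKM (-0.31, adjusted p = 0.158). Ptpn1, a phosphatase gene of JAK2 and TYK2, was at 29.5 and 39.2 FPKM (0.38, adjusted p = 0.168), and Sh2b3, the LNK adaptor gene that restrains JAK2, at 11.0 and 13.2 FPKM (0.24, adjusted p = 0.281). With scaling 4 of the 12 rose, Ptpn1 and Sh2b3 among them at 0.56 and 0.41 (adjusted p = 0.000394 and 0.00125), and 1 fell, beside 23.0% and 22.3% of all, and without the third Dot1l-deleted library 3 rose and 2 fell, beside 17.4% and 21.0%. The list median was 0.02 as deposited and 0.20 scaled.

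Receptor genes moved in both directions. Of 23, 17 were tested: 5 rose, 4 fell and 8 did not pass, with a median of -0.01, beside 7.43%, 12.2% and -0.16 for all tested genes. With scaling 9 rose and 4 fell, beside 23.0% and 22.3%, with a median of 0.17. Ifngr1, a chain of the interferon-gamma receptor, went from 49.0, 48.2 and 46.9 FPKM to 231, 233 and 167 (log2 fold change 2.09, adjusted p = 1.62e-05). Il6ra, the IL6-binding chain, went from 0.771, 0.920 and 0.682 to 6.61, 5.40 and 3.91 FPKM (6.71-fold higher mean, adjusted p = 8.47e-05), while its signalling partner Il6st fell from means of 3.48 to 1.79 FPKM (-0.70, adjusted p = 0.0231; this gene was chosen after its values were seen, as the partner of Il6ra). The call of Il6st was lost without control replicate 1, 2 or 3 (adjusted p = 0.0520, 0.0968 and 0.0682) and without Dot1l-deleted replicate 2 (0.0676). Il6ra averaged 0.791 FPKM in the controls, under the filter, and was tested only through the libraries where it is high, so its call among the 5 is no support. Csf2ra, the GM-CSF-binding chain, rose from 12.4 to 41.0 FPKM (1.64, adjusted p = 2.66e-05), and Il10ra fell from 7.99 to 1.99 FPKM (-1.59, adjusted p = 2.28e-05). The IL3-binding chain Il3ra, also chosen after its values were seen because IL3 was in the medium, was at 16.2 and 13.3 FPKM (-0.27, adjusted p = 0.219).

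All 4 ligand genes of JAK-coupled receptors above the filter fell, of 14 on the list, beside 12.2% of all tested genes. These 4 also fell with scaling, beside 22.3% of all. Il6 went from 34.0, 35.8 and 34.6 FPKM to 11.9, 15.7 and 11.2 (log2 fold change -1.37, adjusted p = 0.000132), in cells grown with added IL6 protein. Osm, an IL6 family cytokine gene that is itself a STAT5 target, fell from 18.3 to 10.6 FPKM (-0.74, adjusted p = 0.00718). Tslp, which signals through CRLF2 and the IL7 receptor chain, fell from 8.72 to 3.37 FPKM (-1.17, adjusted p = 0.00254), and Lif from 5.82 to 3.39 FPKM (-0.64, adjusted p = 0.0136). Without control replicate 1 the call of Osm was lost (adjusted p = 0.0570), and that of Lif was lost without control replicate 1, 2 or 3 (0.0643, 0.0686 and 0.0714) or Dot1l-deleted replicate 1 (0.0521). Il3 and Csf2 were below the filter, at means of at most 0.206 FPKM in either group. Il4, also below it, was at 0.599, 0.602 and 0.761 FPKM in controls, against 1.24, 1.62 and 0.784 after deletion. It is named after its values were seen. With no filter, 7 ligand genes were lower and 1 higher at an unadjusted p under 0.05 (limma). The share of all genes at this looser threshold was not taken, so these counts are no further support.

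Genes known as targets of STAT3 and STAT5 were called in both directions. Of 20, 19 were matched and 16 tested: 3 rose, 5 fell and 8 did not pass, with a median of -0.27, beside 7.43%, 12.2% and -0.16 for all tested genes. Scaled, 5 rose and 5 fell, beside 23.0% and 22.3% of all, with a median of -0.09 beside 0.0011. With no filter 5 of 19 rose and 4 fell, beside 1348 and 1379 of all 20551 genes. Il2ra, the alpha chain of the IL2 receptor and a STAT5 target, fell from 7.16, 6.90 and 7.31 FPKM to 0.906, 1.55 and 0.905 (log2 fold change -1.95, adjusted p = 1.62e-05). Bcl2, a survival gene, fell from 15.0 to 4.24 FPKM (-1.62, adjusted p = 1.62e-05). Lrg1, a secreted glycoprotein gene of neutrophils and of the STAT3 response, was at 0.617, 0.789 and 0.535 FPKM in controls, against 11.0, 10.4 and 8.67 (2.74, adjusted p = 1.28e-06). With a control mean of 0.647 FPKM it too was tested only through the libraries where it is high, so its call is no support. Cebpb, a C/EBP transcription factor gene, rose from 7.40 to 21.6 FPKM (1.42, adjusted p = 9.48e-05). Apart from Lrg1, Cebpb and Gadd45g rose, and Il2ra, Bcl2, Osm, Junb and Pim3 fell; Gadd45g and Pim3 are named here after their values were seen. The call of Pim3 was lost without control replicate 1, 2 or 3 (adjusted p = 0.106, 0.105 and 0.0736) and without Dot1l-deleted replicate 2 (0.0567).

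**Figure D5:**
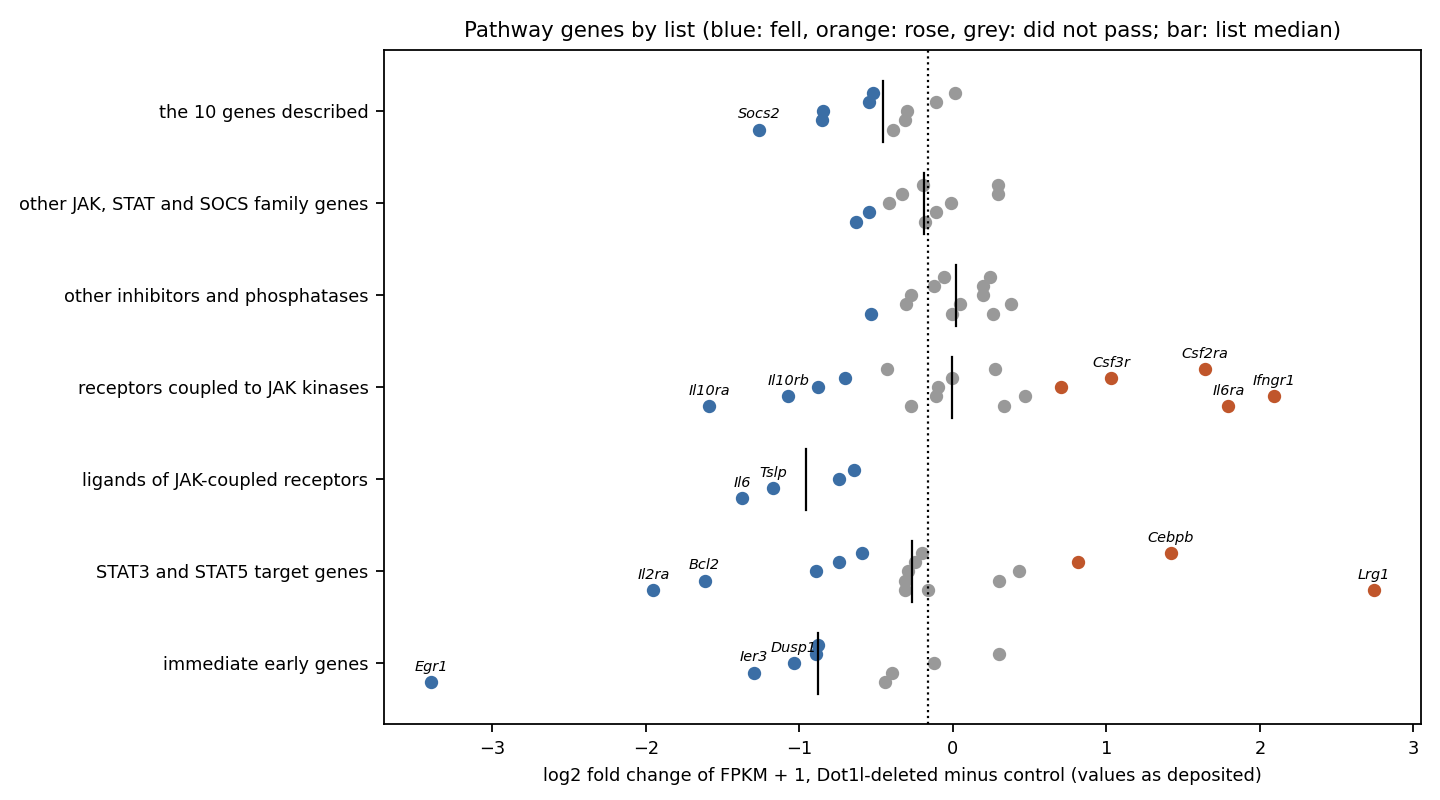
Log2 fold change of FPKM + 1 (x axis, Dot1l-deleted minus control, values as deposited) of every tested gene of each list; blue fell, orange rose, grey did not pass, black bars are list medians and the dotted line is the median of all tested genes. Receptors and STAT targets spread to both sides, from Il2ra at -1.95 to Lrg1 at 2.74, while the 4 ligand genes are all to the left.

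Immediate early genes, induced within minutes by growth factors and by handling, were read as a further list. Of 12, 9 were tested: 5 fell, none rose and 4 did not pass, beside 12.2% falling and 7.43% rising among all tested genes. The list median was -0.88. At an unadjusted p under 0.05, a looser threshold, 7 were lower and 0 higher, and the share of all genes at that threshold was not taken. With scaling 5 fell and 1 rose, Fos, beside 22.3% and 23.0%. Fos was at 1.73, 2.12 and 1.76 FPKM in controls, against 2.83, 2.43 and 2.36 with Dot1l deleted (0.30 as deposited, adjusted p = 0.228, and 0.43 scaled, adjusted p = 0.0231). Egr2, below the filter, was at means of 0.212 and 0.447 FPKM with no overlap, and Nr4a1 at 2.10 and 1.85 FPKM (-0.12, adjusted p = 0.672). Fos, Egr2 and Nr4a1 are named after their values were seen. Egr1 fell from 53.3, 50.7 and 57.4 FPKM to 4.34, 4.30 and 3.92 (log2 fold change -3.40, adjusted p = 1.9e-07). Ier3 fell from 57.9 to 23.1 FPKM (-1.30, adjusted p = 0.000157), Dusp1 from 5.11 to 1.98 FPKM (-1.04, adjusted p = 0.000657) and Junb from 49.1 to 26.3 FPKM (-0.89, adjusted p = 0.00429). Socs3 and Pim1 are early response genes too, and the part of the immediate early response in their falls was not tested.

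For each called gene, the 2 tested genes with the most similar values over the 6 libraries were listed by Pearson's r of log2(FPKM + 1). These points share their libraries and fall into 2 groups, so r is a description of the group difference and of the third Dot1l-deleted library. For Stat5a they were Zadh2 (r = 0.9996) and Gata2 (r = 0.9993), a transcription factor gene of progenitors and mast cells that went from 130, 132 and 125 FPKM to 67.7, 64.0 and 50.3. For Stat5b they were Ube3c and Zfp507, for Socs2 Tgfbr3 and Ccnjl, for Socs3 Hipk2 and Hoxa6, and for Pim1 Pnpla8 and Stk3, all with r of at least 0.996. Hoxa6 was at 2.35, 3.99 and 3.23 FPKM in controls, against 0.374, 0 and 0.0549 after deletion. It was thus tested only through the controls. Each of these 10 similar genes also fell, which follows from choosing them for their likeness to a fallen gene.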

How the data were processed

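RNA of 6 libraries, 3 control and 3 Dot1l-deleted, was made with a stranded mRNA kit, per the labels' protocols. The authors deposited 1 table of FPKM per library. CASAVA 1.8.2, GSNAP, SAMtools, Cuffdiff and the build mm9 are named in the submitters' processing notes, without their roles. FPKM gives no counts, so depth is unknown and limits low genes most; values of short RNAs gave relative depths of 0.742 to 1, an approximation. Of 31626 rows, 378 with the placeholder 999999999 were dropped.

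Genes with a mean of at least 1 FPKM were tested with limma 3.58.1 (R 4.3.3) on log2(FPKM + 1), with a variance trend and no covariate, two-sided, with Benjamini-Hochberg adjustment over all of them. The code was tested on simulated data. Ratios were tested by exact permutation. Alternatives were other pseudocounts, filters, scalings, no trend, a replicate block and leaving out each library. The members and lists were chosen with earlier results of these data known. Named genes are the members, Dot1l, the 4 genes of smallest adjusted p per pathway list and the 2 most alike genes per called member; exceptions are marked, and genes beside the STAT genes were added by position.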

Additional observations from a re-analysis of the deposited data

How the results depend on the processing

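Stat5a, Stat5b, Socs2 and Dot1l passed in all 16 alternatives, with adjusted p-values of at most 0.0249, 0.0440, 0.00287 and 0.00329 (limma). Of the 10 genes, 3 to 7 were called when 1 library was left out, with 7 without Dot1l-deleted replicate 3, and of all tested genes 1428 to 4573. Without that replicate and with median-of-ratios scaling 4569 genes were called, with that scaling alone 5401 (2740 higher, 2661 lower), and with it and the replicate block 4461. Of the 2345 genes called as deposited, 2307 were also called, in the same direction, with scaling. Over all genes, 2727 of 20551 were called with no filter and 2292 of 11924 with no variance trend. Among other family genes 0 were called with no filter, 6 with scaling, 1 with no variance trend, 4 with scaling and the block, 4 with scaling without Dot1l-deleted replicate 3, and 0 to 5 leaving out 1 library. At an unadjusted p under 0.05, 3 of them were lower with no filter, and the share of all genes at that threshold was not taken. Among inhibitors 0 were called with no filter (1 at an unadjusted p under 0.05), 5 with scaling, 5 with scaling and the block, 4 with scaling without that replicate, and 0 to 5 leaving out 1 library. Among ligands 2 to 4 were. Jak2 turned to 0.058 with scaling, 0.058 with scaling and the block and 0.050 with scaling without Dot1l-deleted replicate 3, and ranged from -0.20 to 0.023 leaving out 1 library. Socs1 turned to -0.10 with scaling to the summed FPKM, and ranged from -0.085 to 0.14 leaving out 1 library. The log2 difference of Stat5a to Stat5b turned to -0.019 with a pseudocount of 5 and ranged from -0.069 to 0.058 leaving out 1 library, and that of Socs3 to Cish turned to 0.076 with a pseudocount of 5, was -0.353 with one of 0.1 (exact p = 0.1) and ranged from -0.260 to -0.021 leaving out 1 library (-0.021 without Dot1l-deleted replicate 2). Socs1 and Socs3 were not tested with a filter of 5 FPKM. The causes were not tested. Same-numbered deviations from the group means correlated at -0.0301, -0.0377 and 0.0128. Such values from 3 libraries per group cannot decide whether replicate numbers pair the libraries. With the replicate block 2953 genes were called, and 5 of the 10 members, with adjusted p = 0.0426 for Socs3 and 0.0493 for Pim1.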
